A study of Homo sapiens with 4 samples.

Results

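The 46 genes described here encode the enzymes and regulatory kinases of glycolysis, gluconeogenesis, glycogen storage, the pentose phosphate pathway and fructose entry. They were chosen by symbol: a probe set belonged to the group when the array's annotation gave it a single gene symbol and that symbol, current or older, was on the list. All 46 had at least 1 probe set, 97 probe sets in all, of 19775 genes and 54675 probe sets on the array. Of the 46, 40 lay above the brightness floor defined below.

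Expression was measured by microarray in the human liver cancer line Huh7, derived from a hepatocellular carcinoma, after flow cytometry had separated cells that display CD133 from cells that do not; the labels name no treatment. CD133, the product of PROM1, is a surface marker used to enrich tumour-initiating cells. Each population, CD133+ and CD133-, has a column of RMA values (log2) and a column of MAS5 values (linear signal). These were taken as the same array summarized by different algorithms, which the labels do not state. The labels name no repeated sort, and a single line sorted once has no replicate error, so the comparison of CD133+ with CD133- has no test and each difference describes these arrays.

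Glycolysis splits glucose to pyruvate, which is either reduced to lactate or passed by pyruvate dehydrogenase to the mitochondria. Liver runs much of this route backwards in gluconeogenesis, stores glucose as glycogen, and uses liver forms of several enzymes in place of the forms found in muscle, brain or dividing cells. The pentose phosphate pathway branches off near the top and yields NADPH and ribose.

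Values below are RMA values on the log2 scale unless MAS5 is named, and each difference is CD133+ minus CD133-. Where a gene had several probe sets, the brightest on average represents it. A gene lay above the floor when it exceeded 4.86 on at least 1 array, the median over the array of each probe set's brighter value. As a measure of technical spread, gaps between probe sets of the same member above the floor were taken over 57 pairs. They gave an SD of 0.13 on the log2 scale for the difference of 1 probe set. Members with many probe sets weigh most in it, such as GAPDH with 6 and PGK1 with 5 above the floor. The corresponding SD was 0.17 over all genes.

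The sort marker followed the labels of the arrays, and hepatocyte markers were present on both. PROM1 had values of 10.49 in CD133+ and 5.33 in CD133- cells. All 8 hepatocyte markers examined, among them ALB, APOA1, TTR and AFP, lay above the floor in both populations, with differences from -0.25 (APOB) to 0.55 (TTR). The stromal markers DCN, COL3A1 and ACTA2, the pan-leukocyte marker PTPRC and the endothelial marker CDH5 lay below the floor on both arrays. CD14, HBB, PECAM1 and VWF lay above it and differed by -0.25 to 0.23, and their part in the differences below was not tested. GAPDH control probe sets near the 3′ and 5′ ends of the transcript, a check of RNA integrity, gave MAS5 ratios of 0.952 in CD133+ and 1.01 in CD133- cells.

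Most of the central pathway differed little between CD133+ and CD133- cells. Of the 40 genes above the floor, 36 (90.0%) differed by less than 0.5 and 25 (62.5%) by less than 0.2, against 93.8% and 69.2% of the 12899 genes above the floor on the whole array. The median difference was -0.03 for the members and -0.01 for all genes, with 17 members above 0 and 23 below. In the values as measured, 1 member (PCK1) was at least 2-fold higher and 0 were lower, where 1.65% of all genes were higher and 0.116% were lower. At 1.5-fold, 3 members (PCK1, ENO2 and PFKFB2) were higher and 0 lower, where the background was 3.67% higher and 1.01% lower. PCK1 and ENO2 passed the floor only on the CD133+ array, so their folds are secure only as bounds of at least 1.42-fold and 1.18-fold. With values below the floor set to the floor, a step added after seeing the data, 0 members were 2-fold higher (1.33% of all genes) and 1, PFKFB2, was 1.5-fold higher (3.26% of all genes). By MAS5, 1 of 39 members (ENO2) was at least 2-fold higher as measured and 0 were lower, where 4.47% of all genes were higher and 1.71% lower. The CD133- signal of ENO2 lay below the MAS5 floor, against which it was at least 1.20-fold higher. No replicate was available to set against these counts.

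**Figure D1:**
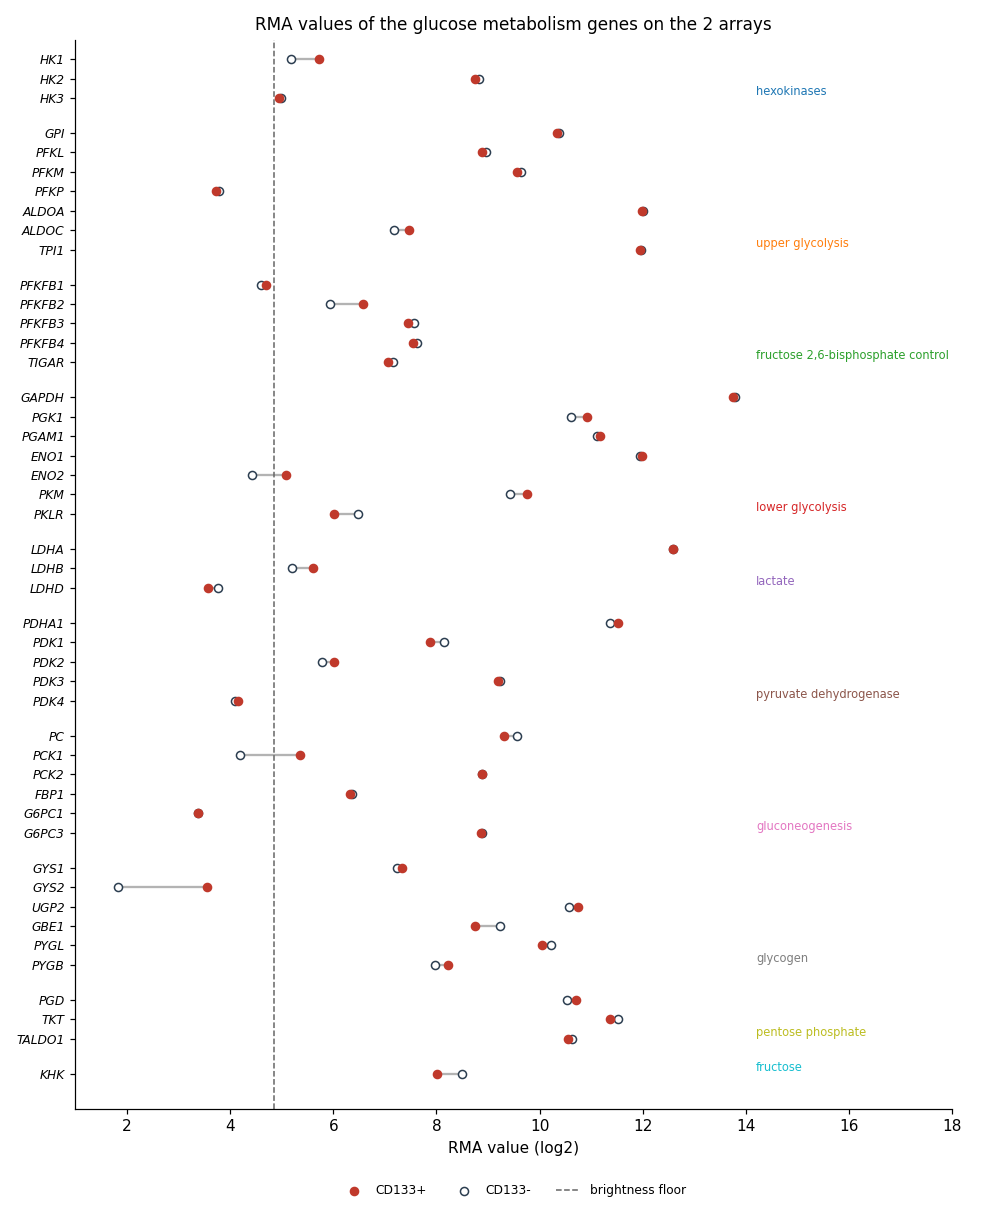
RMA values (log2, horizontal axis) of the 46 genes, grouped by role, in CD133+ cells (filled) and CD133- cells (open). Most pairs of points nearly coincide, whereas PCK1 and ENO2 cross the dashed floor at 4.86 and GYS2 lies wholly below it.

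A limit of 0.3, set with the values known, picked out 10 of the 40 members. PCK1, ENO2, PFKFB2, HK1, LDHB, PKM and PGK1 were higher in CD133+ cells by at least this much, 17.5% of the members where 9.68% of all genes were. Of these 7, PCK1 and ENO2 passed the floor only through CD133+, and with values below the floor set to the floor 6 remained (15.0%, where 9.18% of all genes did), ENO2 dropping out at 0.23. GBE1, KHK and PKLR were lower, 7.5% of the members where 6.35% of all genes were. MAS5 gave the same sign for all 10, which is no independent evidence if, as assumed, the values come from the same arrays.

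Hexokinases trap glucose in the cell as its first phosphate. HK1, the broadly expressed form known from brain and red cells, had values of 5.72 in CD133+ and 5.18 in CD133- cells, a difference of 0.54. Its MAS5 signals were 106 in CD133+ and 77.7 in CD133- cells, the CD133- signal lying below the MAS5 floor of 91.8. HK1 rests on a single probe set. HK2, the insulin-responsive form often raised in tumours, was flat, with 8.75 in CD133+ and 8.82 in CD133- cells, and its other probe set above the floor differed by -0.10. HK3, a form of blood cells, stood just above the floor with 4.95 in CD133+ and 4.98 in CD133- cells, and its MAS5 signals of 8.84 in CD133+ and 5.90 in CD133- cells were far below the MAS5 floor.

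The enzymes of upper glycolysis that rearrange and split hexose phosphates were nearly equal. GPI, the isomerase, had 10.34 in CD133+ and 10.38 in CD133- cells. The liver and muscle phosphofructokinases PFKL and PFKM each differed by -0.07, and the platelet form PFKP lay below the floor. TPI1, the triose isomerase, differed by -0.03, with 3 probe sets between -0.14 and -0.03. ALDOA, the aldolase of muscle and most dividing cells, had 11.98 in CD133+ and 12.01 in CD133- cells. ALDOC, the brain aldolase, had 7.47 in CD133+ and 7.18 in CD133- cells, a difference of 0.29 by RMA and 0.56 by MAS5.

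The bifunctional PFKFB enzymes make and remove the sugar bisphosphate that activates phosphofructokinase, and TIGAR, a p53 target, removes it. PFKFB2, the heart form, had 6.57 in CD133+ and 5.93 in CD133- cells, a 1.57-fold difference. By RMA its probe sets disagreed: a further probe set above the floor differed by -0.14, the widest gap (0.79) between probe sets of any member, and those below the floor differed by -0.05 and -0.09. By MAS5 the representative probe set differed by 0.82. The further one differed by 0.93 by MAS5, at signals of 38.0 in CD133+ and 19.9 in CD133- cells, below the MAS5 floor of 91.8. The probe sets below the RMA floor differed by 0.09 and 1.35 by MAS5. PFKFB3, the inducible form, differed by -0.11, PFKFB4 by -0.07 and TIGAR by -0.08. PFKFB1, the liver form, lay below the floor on both arrays, with 4.69 in CD133+ and 4.60 in CD133- cells.

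In lower glycolysis the abundant enzymes were equal and PGK1 was higher. GAPDH had 13.75 in CD133+ and 13.79 in CD133- cells, and its 6 probe sets all lay between -0.07 and -0.03. PGAM1 and ENO1, the mutase and the ubiquitous enolase, differed by 0.06 and 0.05, although a further ENO1 probe set differed by -0.26. PGK1, an ATP-making kinase of the pathway, had 10.93 in CD133+ and 10.60 in CD133- cells, a difference of 0.33 (1.25-fold) by RMA and 0.32 by MAS5. By RMA all 5 PGK1 probe sets above the floor were on the positive side, from 0.04 to 0.39. By MAS5 the probe set at 0.04 differed by -0.17, and the others above the floor stayed positive. The PGK1 difference of 0.33 exceeded the SD of 0.13 from probe sets of a member, to which PGK1 itself contributes, and the 0.17 over all genes. It was smaller than the widest gap between probe sets of a member, 0.79.

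ENO2 in the values as measured, and the pyruvate kinases on their brightest probe sets, departed from their neighbours. ENO2, the neuronal enolase, had 5.09 in CD133+ cells against 4.42, below the floor, in CD133- cells. Against the floor this is at least 1.18-fold, and the difference of the values as measured was 0.67. The MAS5 signals of ENO2 were 110 in CD133+ and 50.5, below the MAS5 floor, in CD133- cells. PKM, the pyruvate kinase of muscle and dividing cells, had 9.75 in CD133+ and 9.42 in CD133- cells, a difference of 0.33, while its other probe set, with 6.05 in CD133+ and 6.17 in CD133- cells, differed by -0.12. PKLR, the pyruvate kinase of liver and red cells, had 6.02 in CD133+ and 6.48 in CD133- cells, a difference of -0.45. All 3 PKLR probe sets were lower in CD133+ cells, at -0.45, -0.51 and, below the floor, -0.36, and MAS5 gave -0.51 for the first. On these probe sets the pyruvate kinase genes lay 0.78 apart in their differences, 0.92 by MAS5. By RMA the gap was 0.33 with the other PKM probe set and 0.54 with the mean over the probe sets of each gene. By MAS5 the brightest PKM probe set differed by 0.40 and the other by -0.40, near the -0.51 of PKLR.

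**Figure D2:**
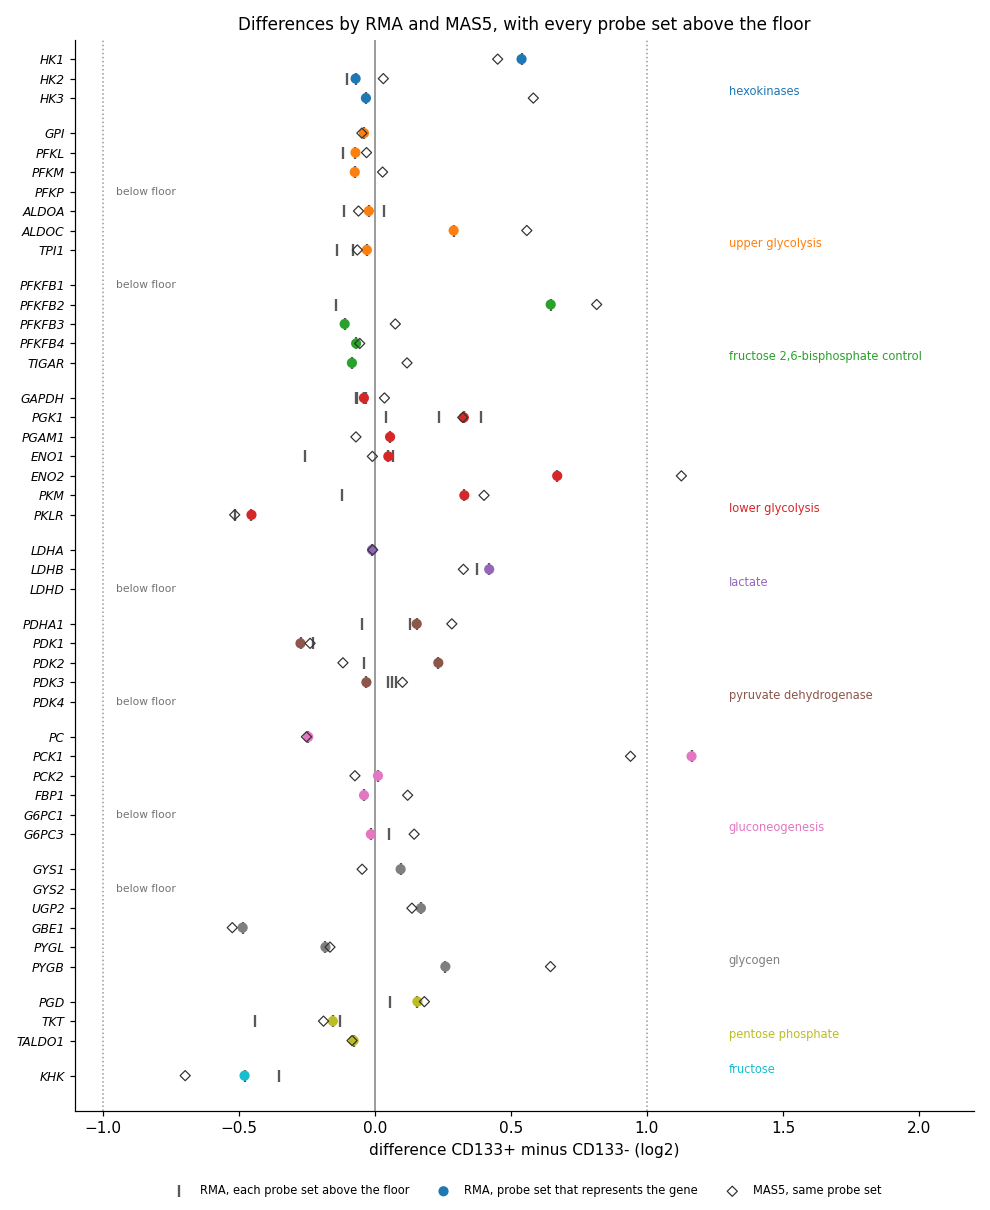
Difference CD133+ minus CD133- (log2, horizontal axis) of each member above the floor, by RMA (filled), by MAS5 for the same probe set (diamond) and by RMA for each of its probe sets above the floor (ticks). Dotted lines mark 2-fold. PCK1 at 1.16 as measured (0.50 against the floor) is the only RMA point beyond them, and the ticks of PFKFB2 lie 0.79 apart.

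Pyruvate is turned to lactate by LDHA and LDHB. LDHA, the muscle subunit, was equal, with 12.58 in CD133+ and 12.59 in CD133- cells. LDHB, the heart subunit, had 5.61 in CD133+ and 5.19 in CD133- cells, a difference of 0.42, and 0.38 on its other probe set. Both LDHB probe sets are of a kind that can match related transcripts and stood near the floor. LDHD, which acts on D-lactate, lay below the floor.

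Entry of pyruvate into the mitochondria showed small differences of mixed sign. PDHA1, the catalytic subunit of pyruvate dehydrogenase, had 11.53 in CD133+ and 11.38 in CD133- cells, a difference of 0.15, with its probe sets between -0.05 and 0.15. The PDK kinases switch that enzyme off. PDK1, a hypoxia-inducible member, had 7.88 in CD133+ and 8.15 in CD133- cells, a difference of -0.27, with -0.23 on its other probe set above the floor. PDK2 differed by 0.23 by RMA but by -0.12 by MAS5, and by -0.04 on its other probe set. PDK3 differed by -0.03, with 4 probe sets between -0.03 and 0.08, and PDK4, a fasting-induced kinase, lay below the floor.

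Gluconeogenesis held PCK1, the member with the largest difference as measured among those above the floor. PCK1, the cytosolic PEP carboxykinase that commits carbon to glucose synthesis, had 5.36 in CD133+ cells against 4.19, below the floor, in CD133- cells. This is at least 1.42-fold against the floor (0.50 on the log2 scale), and the difference of the values as measured was 1.16. Its MAS5 signals were 172 in CD133+ and 89.7, below the MAS5 floor, in CD133- cells, at least 1.87-fold higher. PCK1 rests on a single probe set of the kind that can match several transcripts. The other enzymes of the route did not share this size of difference. PCK2, the mitochondrial form, had 8.89 in CD133+ and 8.88 in CD133- cells. FBP1, the bisphosphatase, differed by -0.04 and G6PC3, the ubiquitous glucose phosphatase, by -0.01. PC, pyruvate carboxylase, had 9.32 in CD133+ and 9.56 in CD133- cells, a difference of -0.24. G6PC1, the liver phosphatase that releases glucose, lay below the floor with 3.38 on both arrays.

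Among glycogen genes GBE1 was lower and the phosphorylases went opposite ways. GBE1, the branching enzyme, had 8.75 in CD133+ and 9.24 in CD133- cells, a difference of -0.49, and -0.52 by MAS5. It lay at percentile 1.65 of all genes above the floor and rests on a single probe set. PYGL, the liver phosphorylase, had 10.04 in CD133+ and 10.22 in CD133- cells, a difference of -0.18. PYGB, the brain phosphorylase, had 8.23 in CD133+ and 7.97 in CD133- cells, a difference of 0.26, with MAS5 signals of 856 in CD133+ and 547 in CD133- cells. UGP2, which makes the UDP-glucose donor, differed by 0.17 and the muscle glycogen synthase GYS1 by 0.09. The liver glycogen synthase GYS2 lay below the floor, with 3.55 in CD133+ and 1.83 in CD133- cells. Its MAS5 signals of 89.3 in CD133+ and 19.3 in CD133- cells were below the MAS5 floor too, so no fold is given.

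Pentose phosphate genes were close to equal and the fructose kinase was lower. PGD, of the oxidative branch, had 10.70 in CD133+ and 10.54 in CD133- cells. TKT, transketolase, differed by -0.15 and its probe sets ran from -0.44 to -0.13, and TALDO1, transaldolase, differed by -0.08. KHK, ketohexokinase, which brings fructose into the liver pathway, had 8.02 in CD133+ and 8.50 in CD133- cells. Its difference was -0.48 by RMA and -0.70 by MAS5, and its other probe set differed by -0.35 by RMA but by 0.32 by MAS5.

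Grouping the members by enzyme family, a view taken with the values known, showed where isozymes parted. HK1 against HK2 (a gap of 0.61 between their differences), ALDOC against ALDOA (0.31) and LDHB against LDHA (0.43) each paired a member higher in CD133+ cells with a member within 0.1 of equality. So did ENO2 against ENO1 and PCK1 against PCK2, with gaps of 0.62 and 1.15 as measured, but ENO2 and PCK1 passed the floor only through CD133+, and with the floor in place of their CD133- values the gaps were 0.18 and 0.49. PKM against PKLR (0.78) and PYGB against PYGL (0.44) paired members of opposite sign, the liver form being the lower in each. With the other PKM probe set, at -0.12, PKM and PKLR were both lower in CD133+ cells and the gap narrows as given above. PFKFB2 against PFKFB3 (0.76) rests on a PFKFB2 probe set that its other probe sets did not match by RMA. PDK2 against PDK1 (0.51, 0.12 by MAS5) rests on an RMA value whose sign MAS5 did not share. The liver form PFKL was not lower than PFKM, the differences being the same to 2 decimals. The liver forms PFKFB1 and GYS2 lay below the floor. Levels of different probe sets were not compared with each other, so these gaps are between differences and do not give the share of an isozyme.

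**Figure D3:**
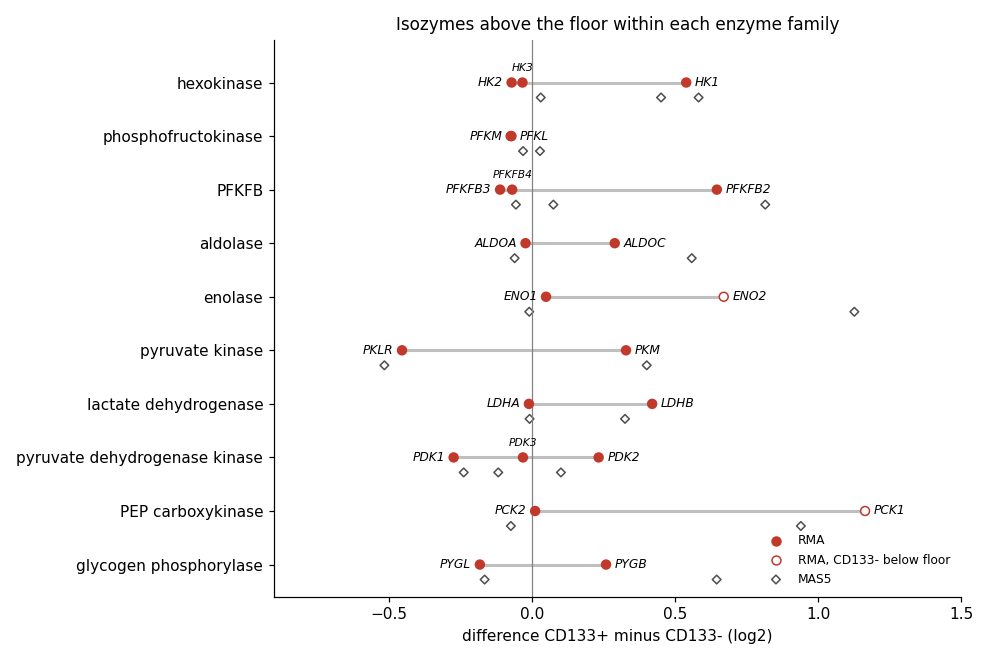
RMA differences (circles) and MAS5 differences (diamonds, offset downward) CD133+ minus CD133- on the log2 scale for isozymes above the floor, by enzyme family, with grey bars spanning the RMA range. Open circles mark PCK1 and ENO2, whose CD133- values lay below the floor, so that their bars shrink to 0.49 and 0.18 against it. On the probe sets plotted, the pyruvate kinases lie 0.78 apart and the phosphofructokinases coincide.

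Further genes of the same pathways held no 2-fold difference. Of 76 listed genes outside the member list, 61 had a probe set of their own in the annotation used here and 54 lay above the floor. Their median difference was -0.07, with 18 (33.3%) above 0, where 45.6% of all genes were, and 34 below. None of the 54 was 2-fold changed. At 1.5-fold, 0 were higher and 2 lower, where 3.67% and 1.01% of all genes were. These were FOXO1, a transcription factor that drives PCK1 and G6PC1 in fasting liver, and EPM2A, the glycogen phosphatase laforin. FOXO1 had 6.69 in CD133+ and 7.35 in CD133- cells, a difference of -0.65, with -0.51 on its other probe set above the floor. EPM2A had 4.88 in CD133+ and 5.64 in CD133- cells, a difference of -0.76 by RMA and -0.40 by MAS5. Its CD133+ value stood at the floor of 4.86, on a probe set of the kind that can match several transcripts. Of its 3 probe sets, which ran from -0.76 to 0.20, only 1 lay above the floor.

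Of the 8 listed regulators, all above the floor, 2 (25.0%) were above 0 and 5 below. Of the 5 glucose and lactate transporters above the floor, 2 (40.0%) were above 0 and 3 below. Of all genes above the floor, 45.6% were above 0. MLXIPL, the carbohydrate-responsive factor ChREBP that drives PKLR, had 6.20 in CD133+ and 6.56 in CD133- cells, a difference of -0.35. CREB3L3, a liver factor of the fasting response, differed by 0.11 and PPARGC1A, a coactivator of gluconeogenic genes, by 0.00. SLC2A2, the liver glucose transporter, differed by -0.29, SLC2A1, the ubiquitous transporter, by -0.15 and SLC2A10 by -0.39. SLC2A8 differed by 0.10, with its probe sets above the floor from -0.29 to 0.10. The lactate transporter gene SLC16A7 differed by 0.12, with such probe sets from -0.17 to 0.43. PDP1, the phosphatase that switches pyruvate dehydrogenase on, had 6.48 in CD133+ and 6.01 in CD133- cells, a difference of 0.47. HIF1A, the hypoxia factor known to drive many glycolytic genes, differed by 0.12, and MYC by -0.19.

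**Figure D4:**
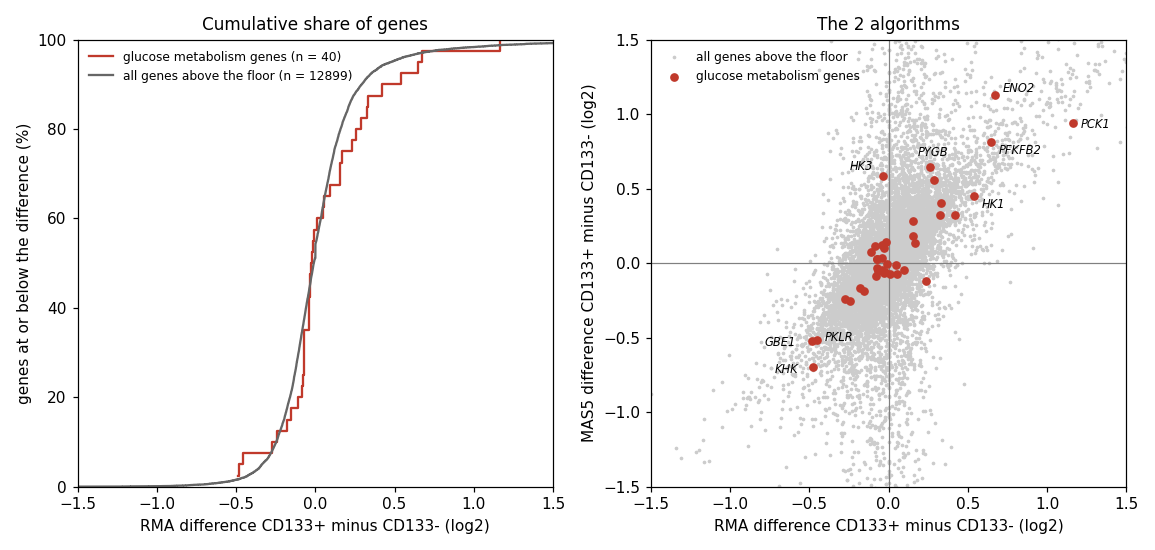
Left, cumulative share of genes (%) by RMA difference CD133+ minus CD133- (log2) for the 40 members and for all 12899 genes above the floor. Right, MAS5 against RMA differences (log2) of the same genes. The curves cross near 0 and the members' steps lie outside the background curve below -0.4 and to the right of it from about 0.1 to 0.67, and the view ends at 1.5 in each direction.

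Promoter stretches of 4 members are shown, chosen by their differences: PGK1 was higher, LDHA was equal and PKLR was lower. ENO2 was higher as measured, but against the floor only by at least 1.18-fold. All the stretches shown carry the core ACGTG, the letters read by hypoxia factors and, within CACGTG, by E-box factors. Each runs 5′ to 3′ from 220 to 61 bases before a RefSeq start on GRCh38.p14, with ACGTG on either strand (CACGT on the other) in capitals. LDHA and PKLR each had 2 listed windows, and the window holding the most such letters in this stretch was printed. Their presence in those stretches was therefore selected for. Which start these cells use, and which form of PKLR it would give, was not examined. The positions are chrX:78104028-78104187 (plus strand) for PGK1, chr12:6914360-6914519 (plus) for ENO2, chr11:18394343-18394502 (plus) for LDHA and chr1:155301499-155301658 (minus) for PKLR.
PGK1: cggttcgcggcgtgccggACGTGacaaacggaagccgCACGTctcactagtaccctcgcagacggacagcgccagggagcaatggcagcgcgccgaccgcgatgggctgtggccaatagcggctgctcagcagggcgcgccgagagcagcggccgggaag
ENO2: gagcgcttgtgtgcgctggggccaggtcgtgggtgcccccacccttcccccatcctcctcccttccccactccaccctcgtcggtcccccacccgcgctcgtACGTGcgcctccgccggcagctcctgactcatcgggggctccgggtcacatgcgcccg
LDHA: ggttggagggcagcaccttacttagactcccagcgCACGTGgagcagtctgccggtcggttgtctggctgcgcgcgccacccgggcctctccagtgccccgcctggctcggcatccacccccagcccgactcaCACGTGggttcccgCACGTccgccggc
PKLR: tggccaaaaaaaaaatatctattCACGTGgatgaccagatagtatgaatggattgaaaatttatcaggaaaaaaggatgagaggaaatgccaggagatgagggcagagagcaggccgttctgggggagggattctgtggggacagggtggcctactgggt

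PGK1 and ENO2 hold the core without the palindrome, and LDHA and PKLR hold CACGTG, which contains ACGTG on both strands. RefSeq listed promoter windows of 250 bases before to 50 after a start for 41 of the 46 members. At least 1 window held ACGTG for 23 of these (56.1%), against 24.9% of all 27305 listed genes. CACGTG stood in 9 members (22%), against 8.77% of genes, and GCGTG, a further hypoxia core, in 22 (53.7%), against 40.6%. Counted by window, ACGTG stood in 29 of 72 member windows (40.3%) and in 21.4% of all 35116 windows. CACGTG stood in 11 member windows (15.3%) and in 7.26% of all windows. GCGTG stood in 26 member windows (36.1%) and in 36.5% of all windows, so its excess by gene was absent by window. A gene with several windows has more places to hold a motif, which the count by gene does not adjust for. The members printed were picked by their differences, and the windows of LDHA and PKLR also by their letters. Whether the letters relate to a difference was not tested, and binding to them was not measured.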

How the data were processed

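Total RNA of each sorted population was labelled with biotin and hybridized, per the labels' protocols. The deposited MAS5 columns hold signal intensity on a linear scale, per the submitters' processing notes, which list MAS5 and GCOS but give neither a version. Trimmed of 2% at each end, their means were 500.1 on both arrays, so these values carry a global scaling. The other deposited columns are RMA values, which are log2, per the labels. The RMA software and the set of arrays it normalized are not given in the sources used. Both scalings hide a global shift between populations.

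Symbols of 41097 probe sets with a single gene were updated through the gene number to GRCh38.p14, which matched 41043. The 1801 probe sets with more than 1 symbol and the 11777 without any were not used for genes. The labels do not say that both columns of a population come from 1 array; this was assumed, and the 2 algorithms were never treated as replicates. A gene was called at 2-fold or more above the floor, and the spread between probe sets stands in for technical error only, leaving out sorting, culture and hybridization. Whether a difference lies in every cell or in some cells cannot be told apart.

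Members are named with their values where they differed by 0.5 or more, were extreme within their role, or had probe sets in disagreement; the members, lists and floor were chosen with earlier results of these data known, and further members were named for their role. Alternatives were MAS5, the mean over probe sets, removal of probe sets that can match several transcripts, no floor, a floor at percentile 75, 1.5-fold and, chosen after seeing the data, values below the floor set to the floor. Counting was tested on simulated data with changes larger than 2-fold in genes well above the floor. That test does not bear on calls near the floor or near 2-fold. Python 3.11.15, numpy 2.4.6 and pandas 2.3.3 were used. Precision is limited by the number of arrays.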

Additional observations from a re-analysis of the deposited data

How the results depend on the processing

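The median difference of the members stayed between -0.04 and 0.03, and 0 members were 2-fold lower, under each alternative run. The count of members at least 2-fold higher was 1 by RMA (PCK1), 1 by MAS5 (ENO2) and 1 with the mean over probe sets. It was 0 without probe sets that can match several transcripts, where 22 members remained above the floor and PCK1 had no probe set. It was 0 with the floor at percentile 75, which 31 members passed, 2 with no floor (PCK1 and GYS2), and 3 at 1.5-fold. With values below the floor set to the floor, an alternative chosen after seeing the data, it was 0, PCK1 differing by 0.50 and ENO2 by 0.23. The share of all genes higher was 1.65% by RMA, 4.47% by MAS5, 3.67% at 1.5-fold and 1.33% with values at the floor. For the other alternatives the share of all genes was not computed, so their counts stand without a background. Of 21 named members, 17 kept their sign by MAS5 and 20 with the mean over probe sets. The mean lowered PFKFB2 to 0.09 and PKM to 0.10, and without shared probe sets TKT differed by -0.44. No paired analysis was possible because each population has 1 array. No replicate could be left out for the same reason, so the size of culture and sorting variation is unknown for every value.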
